A study of Homo sapiens with 6 samples.

Results

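The cytosolic ribosomal protein genes encode the protein part of the ribosomes that translate nuclear mRNAs. The genes were chosen by symbol alone: RPL or RPS followed by a number and an optional A, X or L, plus RPLP0, RPLP1, RPLP2 and RPSA. This gave 81 of the 35993 genes in the deposited table, 32 named for the small subunit and 49 for the large subunit. They were measured by RNA-seq in MIA PaCa-2, a long-established line of human pancreatic cancer cells. Cells grown in DMEM with 10% FBS and 2.5% horse serum were moved to DMEM with 1% FBS and then either left untreated or given 4 µM rhCYGB, a bacterially produced recombinant human cytoglobin, for 48 h. Each group had 3 libraries, and the study describes its experiments as repeated and independent but does not tie the libraries to separate cultures, so the p-values measure only the spread between these libraries. The untreated group is not described as having received a control protein.

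A ribosome holds a single copy of nearly every ribosomal protein, and the genes for these proteins are known to be expressed together at a high and similar level. Their mRNAs carry a 5′ terminal oligopyrimidine (TOP) tract, a C at the first base followed by a run of pyrimidines, through which mTORC1 signalling and the RNA-binding protein LARP1 adjust their translation and stability. Some ribosomal proteins also act outside the ribosome. RPL5 and RPL11, with 5S rRNA, bind MDM2 when ribosome assembly is disturbed. Most of the genes have processed pseudogenes elsewhere in the genome, which can share their reads.

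The tract is shown here for the genes at the ends of the order of change and for the 3 genes of the ribosomal stalk, because it is the feature by which this family is best known. RefSeq promoter windows of GRCh38.p14 were matched for 64 of the 81 genes. In each line below, 10 bases lie before the annotated transcription start and 20 bases run from it, and capitals mark the C at the start with the unbroken pyrimidine run that follows it.
RPL12 (chr9:127451387-127451416, minus strand): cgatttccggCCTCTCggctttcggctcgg
RPL28 (chr19:55385922-55385951, plus strand): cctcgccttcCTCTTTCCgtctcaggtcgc
RPS12 (chr6:132814559-132814588, plus strand): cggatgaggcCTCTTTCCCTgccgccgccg
RPLP0 (chr12:120201092-120201121, minus strand): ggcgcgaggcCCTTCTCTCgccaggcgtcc
RPLP1 (chr15:69452808-69452837, plus strand): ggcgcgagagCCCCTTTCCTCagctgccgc
RPLP2 (chr11:809957-809986, plus strand): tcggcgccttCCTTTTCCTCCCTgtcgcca
RPL22 (chr1:6199576-6199605, minus strand): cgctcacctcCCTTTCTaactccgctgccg
RPL15 (chr3:23916535-23916564, plus strand): tggggcctgctggaggagcttcacgcagtc
RPL6 (chr12:112411423-112411452, minus strand): gtatcctcagtgaatcagaaccagaaaaag
RPS27L (chr15:63157458-63157487, minus strand): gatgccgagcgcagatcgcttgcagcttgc

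On the strand that reads as the mRNA does, a C at the annotated start followed by pyrimidines for a run of at least 5 bases was present in 42 of the 64 genes (65.6%) and in 1104 of all 27305 promoter windows (4.04%). A run of at least 8 that begins with a C up to 20 bases before or after the annotated start was present in 76.6% of the 64 genes and in 15.4% of all windows. RPL15, RPL6 and RPS27L, which stood at the low end of the order of change described below, have no run of 5 at the annotated start. RPL10A and RPL13, near the high end at 0.49 and 0.48 on the log2 scale, have none either. The annotation gives a single start per gene, and an absent run says only that these letters are not in this window.

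The 6 libraries held between 34838399 and 42271299 counts on genes, and 14728 genes had enough counts to be tested, with 99.97% of all counts among them. Every pair of libraries of the same group differed by more than counting error, with a chi-square per degree of freedom between 4.72 and 6.67. Of the epithelial and mesenchymal markers of the line, KRT8, KRT18 and VIM had at least 39463 counts in every library. The leukocyte, endothelial, acinar and islet markers PTPRC, PECAM1, PRSS1, CPA1, INS and GCG had 0 counts in every library, and COL1A1, PDGFRB and DES had at most 10. CYGB itself had 0 counts in all libraries.

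Of the 81 ribosomal protein genes, 78 passed the filter on low counts. The other 3, RPL3L, RPL10L and RPL39L, are paralogues known for muscle and germ-cell expression. Each had 0 counts in each library, which allows a level of up to 0.071 to 0.0861 CPM (counts per 1000000 counts of the library) depending on the library, an upper limit that covers counting error only. Apart from RPS27L, each of the 78 genes had between 10626 and 151070 counts in every library, so counting error was small relative to the counts.

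Together, the 81 genes took 8.84%, 8.97% and 8.62% of the gene counts in untreated libraries 1, 2 and 3, and 9.66%, 9.84% and 9.09% in rhCYGB libraries 1, 2 and 3. All 3 treated libraries lay above all 3 untreated libraries, and rhCYGB library 3 was the lowest of the treated. The mean share rose from 8.81 ± 0.178% to 9.53 ± 0.392% (SD, n = 3 per group), with a two-sided exact permutation p of 0.1, the smallest that 3 against 3 allows. As a share of the summed FPKM, which divides by transcript length, the values were 18.1 ± 0.35% and 20.3 ± 0.619% (SD, n = 3). Genes of the mitochondrial genome took a smaller share after rhCYGB, 6.96 ± 0.199% against 7.69 ± 0.238% (SD, n = 3). As a share of the counts without those genes, the family took 9.54 ± 0.173% untreated and 10.2 ± 0.415% after rhCYGB (SD, n = 3). With library sizes counted without those genes, the numbers of ribosomal protein genes called higher and lower were the same as with them. That fit computed TMM factors anew, which take up most of such a change, so the equal numbers say little. Counts are relative, and fewer cells or less RNA per cell cannot be told apart from such data.

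The balance between the subunits barely moved. Small-subunit genes held 37.8 ± 0.0416% of the family's counts in untreated cells and 37.9 ± 0.0586% after rhCYGB (SD, n = 3, two-sided exact permutation p = 0.3). After scaling of the library sizes by TMM factors, as in all CPM from here on, the small-subunit genes summed to 31642, 32031 and 30758 CPM in the untreated libraries and to 39210, 39060 and 36411 CPM in the rhCYGB libraries. The large-subunit genes summed to 52007, 52596 and 50668 CPM untreated and to 64525, 63968 and 59676 CPM after rhCYGB. In both subunits every treated library was above every untreated library.

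At the level of single genes, small rises were spread over nearly the whole family. With edgeR's quasi-likelihood test and Benjamini-Hochberg adjustment over all genes tested, 72 of the 78 genes (92.3%) were higher after rhCYGB at an adjusted p under 0.05, where 39.0% of all tested genes were called higher. Only RPL6 and RPS27L were lower, 2 of the 78 against 38.6% of all tested genes, and RPL7, RPL15, RPL22 and RPL23 did not pass. None of the 78 changed by 2-fold or more, with edgeR at any p or with the Wald test of DESeq2, whereas 27.1% of all tested genes were called at that size. The median log2 fold change was 0.27, a fold of 1.2, and the middle 50% of the genes lay between 0.18 and 0.34. The SD of the log2 fold changes was 0.15 over the family and 1.1 over all tested genes, so the ribosomal protein genes lay close together beside a transcriptome that moved widely.

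The size of the rise depended on the scaling of the libraries. TMM and the size factors of DESeq2 gave 72 genes higher and 2 lower. With total counts and no scaling factors, the median of all tested genes moved to -0.17, the median of the family was 0.10, and 40 genes were called higher and 6 lower. Upper-quartile factors moved the median of all genes to -0.15 and gave 48 higher and 6 lower. Of all 14728 tested genes, 4680 were called higher and 6728 lower with total counts, and 4853 and 6580 with upper-quartile factors. The median of the family minus the median of all genes was 0.27 with TMM and with total counts alike. Scaling factors move every gene by about the same amount, so this difference could not change between these settings. With total counts, 16 of the 78 genes had a negative fold change, of which the 6 called were RPL6, RPL7, RPL15, RPL22, RPL23 and RPS27L. RPL5, RPL17, RPLP0 and RPS4X, called higher with TMM, had fold changes at or just below 0 on that scale.

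Measured against untreated cells, the median log2 CPM of the 78 genes was 0.29, 0.31 and 0.21 higher in rhCYGB libraries 1, 2 and 3, while the untreated libraries lay at 0.01, 0.03 and -0.03. In 70 of the 78 genes (89.7%) every treated library was above every untreated library, which held for 39.8% of all tested genes, and in RPL6 and RPS27L every treated library was below, which held for 39.7% of all tested genes. The groups overlapped for 6 genes, which were the 4 not called together with RPL35 and RPS29. RPL35 had a log2 fold change of 0.17 (SE 0.048, edgeR adjusted p = 0.00556) and RPS29 of 0.18 (SE 0.068, edgeR adjusted p = 0.0276), and for both it was rhCYGB library 3 that fell among the untreated libraries.

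**Figure D1:**
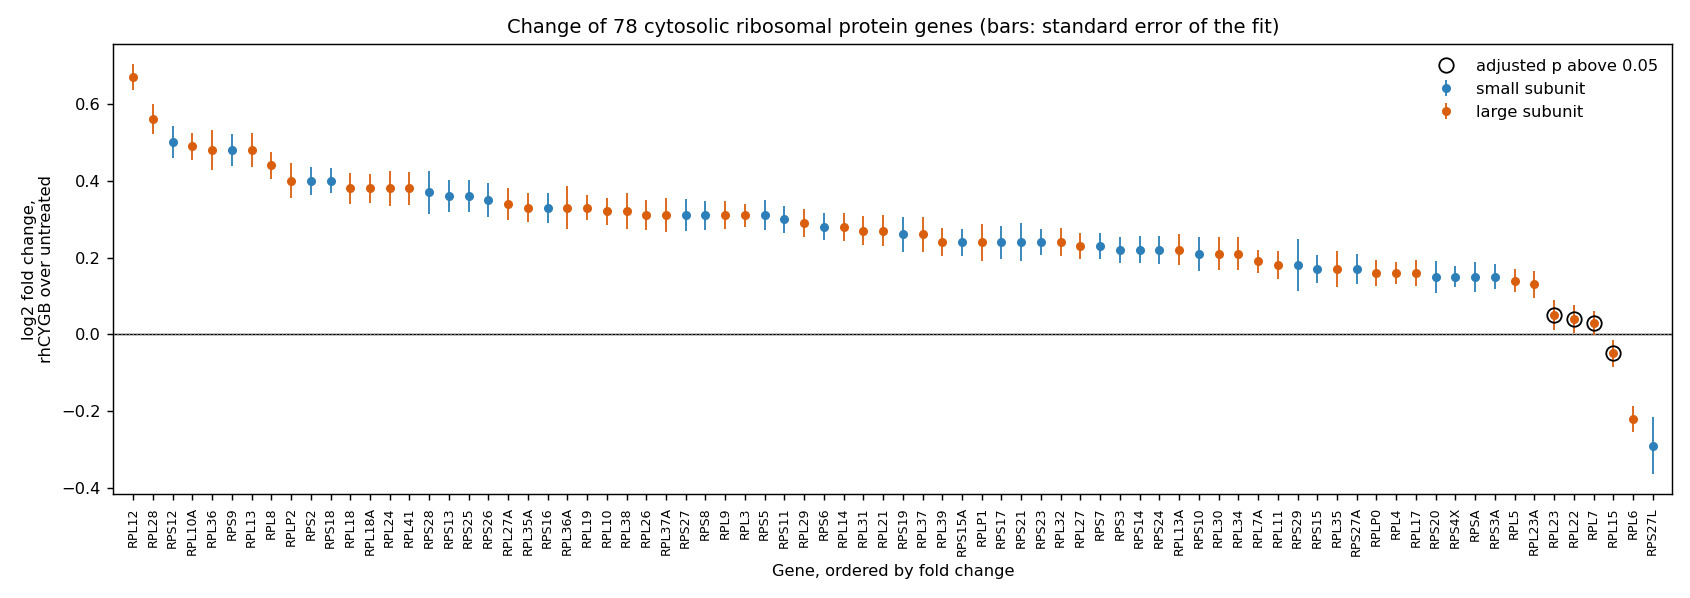
Log2 fold change of each of the 78 tested ribosomal protein genes after rhCYGB, ordered from highest to lowest, with the standard error of the edgeR fit as bars and the subunits in colour. RPL12 stands alone at 0.67, most genes lie between 0.1 and 0.4, the 4 circled genes did not pass the test, and RPL6 and RPS27L lie below 0.

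RPL12, which lies at the base of the ribosomal stalk, rose most. Its level was 1662, 1694 and 1631 CPM in the untreated libraries and 2722, 2677 and 2523 CPM in the rhCYGB libraries. The groups were far apart relative to their spread, with a log2 fold change of 0.67 (SE 0.033, edgeR adjusted p = 5.5e-11), a fold of 1.59. Its pseudogenes took 0.531% of the counts assigned to RPL12 and its pseudogenes together.

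RPL28, a large-subunit protein found in eukaryotic but not bacterial ribosomes, followed. It measured 873, 868 and 851 CPM untreated and 1319, 1317 and 1198 CPM after rhCYGB, a log2 fold change of 0.56 (SE 0.039, edgeR adjusted p = 2.53e-09). The gene's span overlaps UBE2S, and the sources used here do not say whether strand was used in counting, so reads of the neighbour cannot be told apart where they overlap. RPS12, a protein of the small-subunit beak, rose from 892 ± 31.6 to 1260 ± 70.6 CPM (SD, n = 3) and has 3 snoRNA genes inside its span. Such overlaps are common in the family. Of the 81 genes, 29 overlap snoRNA genes, RPL12 among them, and 23 overlap a gene of another kind. The next in order were RPL10A at 0.49, RPL36 at 0.48 and RPS9 at 0.48 on the log2 scale (edgeR adjusted p = 3.95e-09, 7.13e-07 and 4.91e-08). RPL36 overlaps LONP1. In all 6 of these genes every treated library was above every untreated library.

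**Figure D2:**
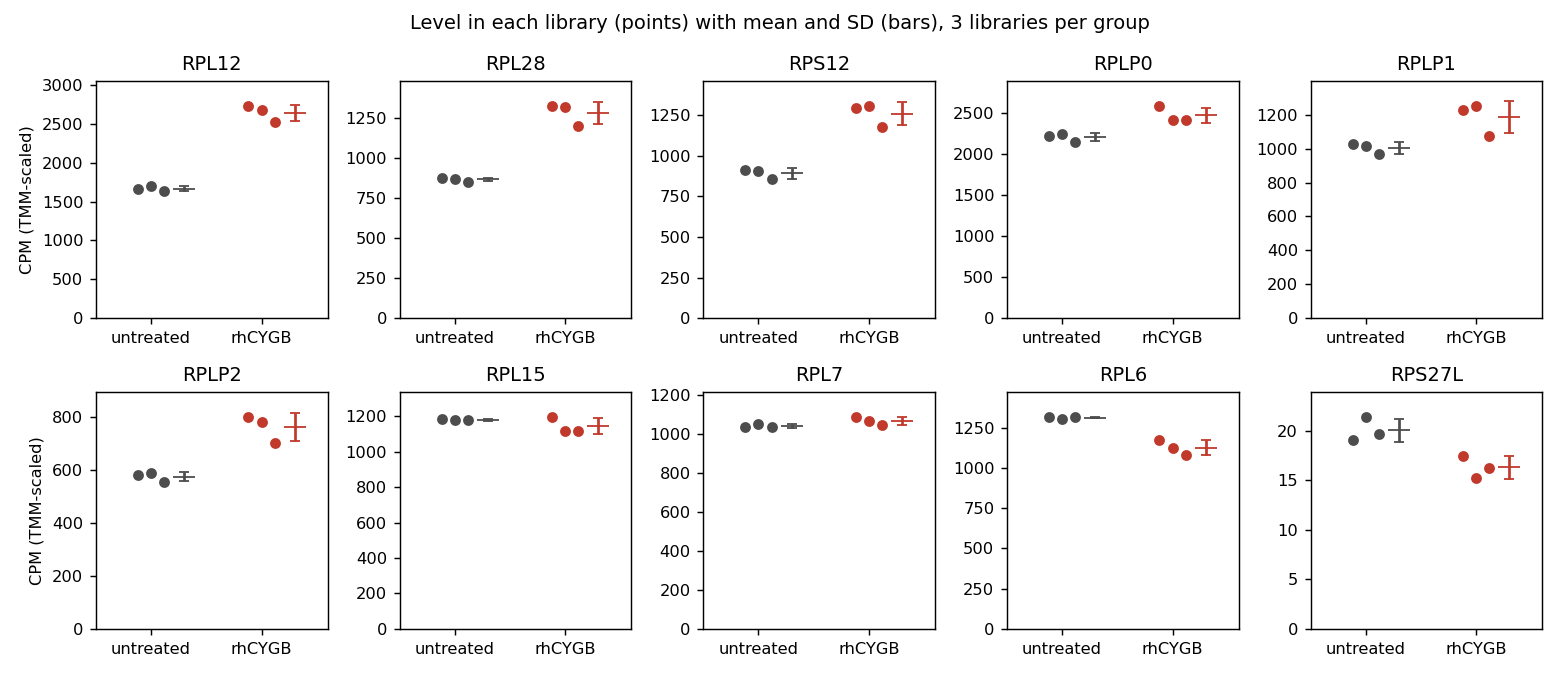
CPM of 10 ribosomal protein genes in each of the 3 untreated (grey) and 3 rhCYGB (red) libraries, with mean and SD beside the points and axes from 0. The groups are separate for RPL12, RPL28, RPS12 and the stalk genes, overlap for RPL15 and RPL7, and are separate in the opposite direction for RPL6 and RPS27L.

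The stalk genes, whose proteins recruit translation factors to the ribosome, rose by unequal amounts. RPLP0, the stalk's anchor, measured 2227, 2253 and 2153 CPM untreated and 2585, 2422 and 2424 CPM after rhCYGB, a log2 fold change of 0.16 (SE 0.033, edgeR adjusted p = 0.000324). RPLP1, which binds RPLP0 as a dimer with RPLP2, measured 1027, 1018 and 966 CPM untreated and 1230, 1249 and 1076 CPM after rhCYGB, a log2 fold change of 0.24 (SE 0.048, edgeR adjusted p = 0.000353). RPLP2 measured 583, 590 and 556 CPM untreated and 801, 784 and 704 CPM after rhCYGB, a log2 fold change of 0.40 (SE 0.045, edgeR adjusted p = 8.53e-07). Within each gene the groups did not overlap, and the difference between the genes was not tested. With total counts or upper-quartile factors, 1 of the 3 was still called higher, where 4680 and 4853 of all 14728 tested genes were.

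RPL5 and RPL11, the 5S particle proteins that bind MDM2, were among the smaller rises. RPL5 went from 1327 ± 10.6 to 1465 ± 42.7 CPM, that is 0.14 on the log2 scale (SE 0.031, edgeR adjusted p = 0.000717). RPL11 went from 803 ± 11.2 to 908 ± 41.7 CPM, that is 0.18 on the log2 scale (SE 0.037, edgeR adjusted p = 0.000448), all as mean ± SD with n = 3. Neither was called with total counts or upper-quartile factors, and RPL5 then stood at -0.02 with total counts.

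Of the genes linked to Diamond-Blackfan anaemia, an inherited red cell failure caused by loss of a single ribosomal protein copy, the list used here held 9 and left out others such as RPL15, which was not called. All 9 were called higher, where 92.3% of the family and 39.0% of all tested genes were, by a median of 0.23 on the log2 scale, from 0.14 for RPL5 to 0.35 for RPS26. With total counts 2 of the 9 were called higher, where 40 of the 78 and 4680 of all 14728 tested genes were. RPS26 went from 288 ± 4.55 to 369 ± 23.0 CPM and RPS19 from 1087 ± 65.4 to 1303 ± 65.4 CPM (SD, n = 3). Pseudogenes took 9.89% of the counts assigned to RPS26 and its pseudogenes. The 4 genes on the X chromosome were also called higher with TMM, RPS4X at 0.15, RPL39 at 0.24, RPL10 at 0.32 and RPL36A at 0.33 on the log2 scale, and RPS4X turned to -0.01 with total counts.

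RPL6, a large-subunit protein also linked to the DNA damage response, was the only abundant member that fell with TMM scaling. It measured 1316, 1307 and 1314 CPM untreated and 1173, 1125 and 1082 CPM after rhCYGB. The untreated libraries were almost level and all treated libraries lay below them, with a log2 fold change of -0.22 (SE 0.034, edgeR adjusted p = 2.67e-05). RPS27L, a p53-inducible paralogue of RPS27, measured 19.1, 21.4 and 19.7 CPM untreated and 17.5, 15.2 and 16.3 CPM after rhCYGB, a log2 fold change of -0.29 (SE 0.074, edgeR adjusted p = 0.00202). Its parent RPS27 went the other way, from 955 ± 25.5 to 1187 ± 74.7 CPM (SD, n = 3). Of the other parents of paralogues, RPL3 rose from 2251 ± 59.5 to 2789 ± 56.9 CPM and RPL10 from 1754 ± 52.5 to 2193 ± 101 CPM (SD, n = 3).

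RPL7, RPL15, RPL22 and RPL23 were not called, and their groups overlapped. RPL15, whose loss causes the same anaemia, stood at 1187, 1177 and 1178 CPM untreated and 1195, 1119 and 1119 CPM after rhCYGB, a log2 fold change of -0.05 (SE 0.034, edgeR adjusted p = 0.233). RPL7 stood at 1037, 1055 and 1039 CPM untreated and 1088, 1066 and 1046 CPM after rhCYGB (log2 fold change 0.03, SE 0.031, edgeR adjusted p = 0.368). RPL22, which binds RNA outside the ribosome and has a regulated paralogue, gave 0.04 (SE 0.036, edgeR adjusted p = 0.292), and RPL23 gave 0.05 (SE 0.038, edgeR adjusted p = 0.276). All of these values turned to significant falls with total counts or upper-quartile factors.

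In untreated cells the highest FPKM within the family were those of RPS18 (3467 ± 68.2), RPS2 (2901 ± 28.3) and RPS27 (2513 ± 56.9), as mean ± SD with n = 3. Among all genes, ribosomal protein genes filled 3 of the 20 and 53 of the 100 highest places by FPKM. The lowest FPKM among tested members were those of RPS27L (3.06 ± 0.181), RPL14 (85.2 ± 0.557) and RPL28 (210 ± 1.55). The deposited FPKM divides by annotated length, and these 3 genes had count-weighted transcript lengths of 6110, 7093 and 4088 bases against a median of 882 bases for the family. In CPM, RPL14 at 648 ± 8.92 and RPL28 at 864 ± 11.9 were not far from the other members (SD, n = 3). RPS2 is among the genes with the most pseudogene counts, at 16.2% of those assigned to RPS2 and its pseudogenes.

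The fold changes of the family ran with the GC content of its transcripts. Across the 78 genes, Spearman's rho between GC content and log2 fold change was 0.48 and Pearson's r was 0.47. The points are genes from the same 6 libraries and are not independent replicates. The 26 genes with the lowest GC content, from 42.1% to 47.5%, stood at a median log2 fold change of 0.21, the middle 26 a median of 0.27, and the 26 with the highest, from 52.0% to 63.0%, a median of 0.33. Over all genes with a GC value in the same 3 ranges the medians were -0.02, -0.06 and -0.05. Across all 13544 tested genes with a value the correlation was near 0 (Pearson's r 0.01, Spearman's rho -0.01), as it was across the 78 mitochondrial ribosomal protein genes (both 0.00). When a trend on GC content was removed from each library, an alternative chosen after seeing the data, the rho across the family was 0.51 and Pearson's r was 0.43. Transcript length had a Spearman's rho of -0.25 with the fold change and mean level a rho of -0.01. Over all 14728 tested genes the rho was 0.05 for length and 0.16 for mean level. The comparisons of this abundant family with all tested genes were not matched for level.

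**Figure D3:**
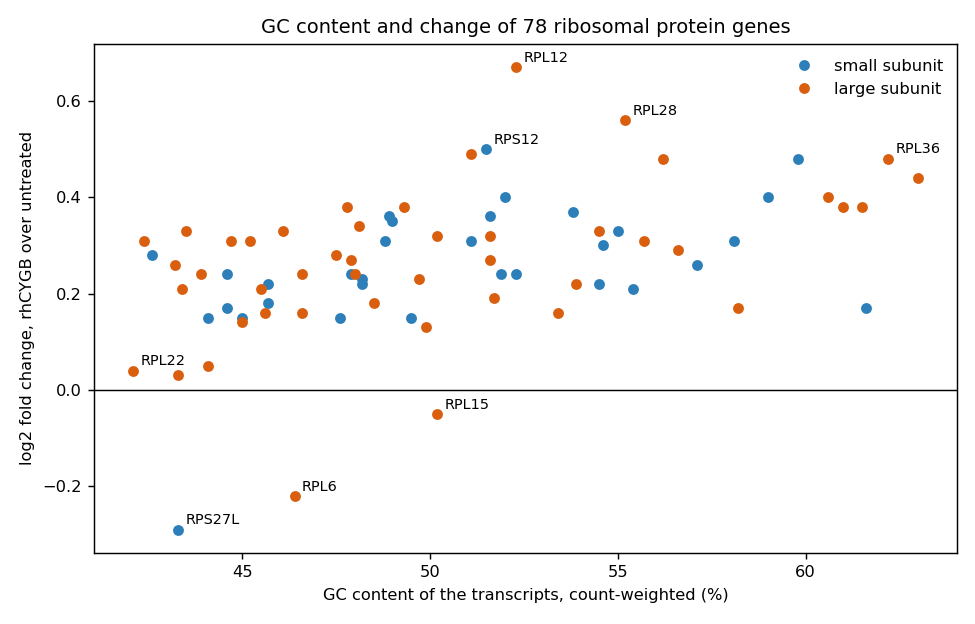
Count-weighted GC content of the transcripts in percent against log2 fold change after rhCYGB for the 78 tested ribosomal protein genes, coloured by subunit. The genes called lower and most of those not called lie under 47.5% GC, and RPL12, RPL28 and RPL36 lie above 52.0%.

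The start sequences gave a less distinct pattern. The 42 genes with a run of at least 5 at the annotated start rose by a median of 0.28 on the log2 scale, and 41 were called higher and 0 lower by edgeR. RPL22 was the gene of these that was not called. The 21 tested genes without such a run had a median of 0.23, with 18 called higher and 2 lower. Both groups lay near the 92.3% of the family called higher, where 39.0% of all tested genes were. The 5 tested genes with no run of 5 that begins with a C up to 20 bases before or after the annotated start were RPL13 (0.48), RPS4X (0.15), RPL15 (-0.05), RPL6 (-0.22) and RPS27L (-0.29). These are descriptions of 1 annotated start per gene, and the difference was not tested.

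The transcript table divided each gene's counts among 192 annotated transcripts of the family, of which 9 were annotated as noncoding. Changes in the share of each transcript within its gene were tested with edgeR's diffSpliceDGE. Of 153 transcripts tested in 44 of the genes, 12 in 11 genes changed their share at an adjusted p under 0.05, which is 7.84% where 1.91% of all tested transcripts were called. The share rose for 5 and fell for 7. The number called was 7 without untreated library 2 and 7 without rhCYGB library 1. Over all transcripts tested, 478 were called with all libraries, 421 without untreated library 2 and 318 without rhCYGB library 1. Shares are estimates made by the authors' assembler from reads that overlapping transcripts hold in common.

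RPS9, a small-subunit protein that contributes to decoding accuracy, had the largest change in percentage points among the called transcripts. Its noncoding transcript variant 8 held 3.12%, 3.63% and 3.43% of the gene's counts in the untreated libraries and 27.8%, 21.0% and 28.0% in the rhCYGB libraries (adjusted p = 7.74e-12 from edgeR's diffSpliceDGE). Noncoding variant 7 rose as well, from 2.67 ± 0.165% to 8.67 ± 0.559% (SD, n = 3, edgeR diffSpliceDGE adjusted p = 0.00266). Added together, both noncoding variants went from 44.3, 46.3 and 42.0 CPM to 381, 312 and 348 CPM, a ratio of 7.85. The RPS9 transcripts annotated as mRNA measured 696, 704 and 652 CPM untreated and 675, 719 and 609 CPM after rhCYGB. Those groups overlapped (ratio 0.976, two-sided exact permutation p = 0.7), so that the rise of RPS9 at the gene level lay in its noncoding transcripts as the table assigns them.

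**Figure D4:**
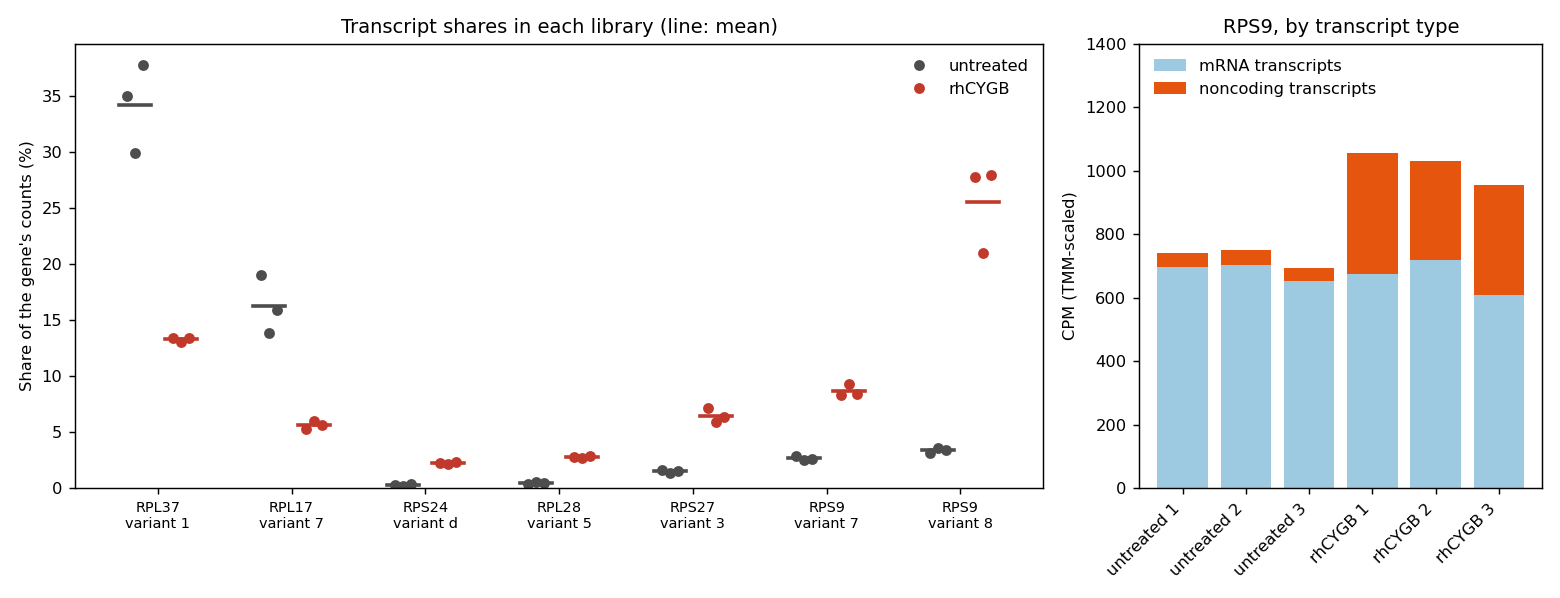
Left, share of the gene's counts in percent held by the 7 transcripts that were called under all 9 alternative settings, in each untreated (grey) and rhCYGB (red) library with the mean as a line. Right, CPM of RPS9 in each library, stacked into transcripts annotated as mRNA, which stay between 609 and 719 CPM, and noncoding transcripts, which rise from at most 46.3 to at least 312 CPM.

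The next largest among the called transcripts was in RPL37, a zinc-binding protein of the large subunit. Transcripts that were not called moved by as much or more, such as RPS14 variant 3 by 27.9 percentage points and RPL15 variant 1 by 26.0, where single libraries stood apart from their group, and RPL6 variant 2 by 21.8, where the groups did not overlap. Variant 1 of RPL37 is annotated at 7573 bases. It held 35.0%, 29.9% and 37.8% of the counts of RPL37 untreated and 13.4%, 13.1% and 13.4% after rhCYGB (edgeR diffSpliceDGE adjusted p = 0.00167). The rest belonged to variant 2, annotated as noncoding at 3083 bases, which went from 62.2% to 70.1% of the counts untreated to between 86.6% and 86.9% after rhCYGB. In CPM the mRNA variant of RPL37 went from 376 ± 33.1 to 175 ± 10.2 while the gene as a whole was called higher (log2 fold change 0.26). RPL17 variant 7 went from 16.3 ± 2.58% to 5.65 ± 0.369% of that gene's counts (edgeR diffSpliceDGE adjusted p = 0.000617).

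Smaller shares also rose in RPS27, RPL28 and RPS24. RPS27 variant 3 went from 1.49 ± 0.107% to 6.45 ± 0.642%, RPL28 variant 5 from 0.452 ± 0.094% to 2.80 ± 0.101%, and RPS24 variant d from 0.283 ± 0.0674% to 2.26 ± 0.0935% (SD, n = 3). In each of the 7 transcripts in these 6 genes the groups did not overlap. RPS14 variant 2 was called lower, but its share was 2.13%, 23.9% and 24.3% in the untreated libraries and 1.63%, 1.92% and 1.89% after rhCYGB, so untreated library 1 lay near the treated libraries, and the call held in 3 of 9 alternatives.

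Ribosomal proteins whose symbols fall outside the family's naming pattern were divided. The fusion gene FAU, which encodes RPS30 joined to a ubiquitin-like sequence, and RACK1, a scaffold on the small subunit, rose by 0.24 and 0.26 on the log2 scale (edgeR adjusted p = 8.55e-05 and 8.18e-07). The variant paralogues did otherwise. RPL22L1, the paralogue of RPL22, went from 49.8 ± 2.21 to 191 ± 8.01 CPM, that is 1.94 on the log2 scale (SE 0.046, edgeR adjusted p = 1.51e-14), beside an RPL22 that was not called. RPL26L1 fell from 50.9 ± 0.928 to 32.6 ± 1.25 CPM (log2 fold change -0.64, edgeR adjusted p = 1.14e-08) and RPL7L1 from 252 ± 2.54 to 212 ± 5.53 CPM (log2 fold change -0.25, edgeR adjusted p = 1.36e-05). RPL36AL did not pass the test (87.4 ± 0.716 and 87.2 ± 6.16 CPM, all SD with n = 3).

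Other genes known for TOP mRNAs rose by a median of 0.31 on the log2 scale, and 11 of 14 were called higher and HNRNPA1 lower at -0.09. Of all tested genes, 39.0% were called higher and 38.6% lower. The largest rises in the list were EEF1D at 0.61 and EEF2, the translocase of elongation, at 0.52, where EEF2 went from 5295 ± 108 to 7570 ± 43.6 CPM (SD, n = 3). EEF1A1, which delivers aminoacyl-tRNA, rose by 0.33. With total counts 10 of the 14 were called higher and 4 lower, where 4680 and 6728 of all 14728 tested genes were.

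The listed regulators of TOP mRNAs spread more widely, with 8 of 13 called higher and 4 lower, beside 39.0% and 38.6% of all tested genes. EIF4EBP1, an inhibitor of cap-dependent translation that mTORC1 inactivates, rose from 73.8 ± 4.71 to 233 ± 13.2 CPM (log2 fold change 1.66, edgeR adjusted p = 2.89e-13), and LARP1B rose by 1.46 on the log2 scale (edgeR adjusted p = 2.59e-12). EIF4EBP2 fell from 124 ± 4.65 to 52.0 ± 1.96 CPM (log2 fold change -1.25, edgeR adjusted p = 1.43e-12), and MTOR fell from 141 ± 6.22 to 92.8 ± 5.31 CPM (log2 fold change -0.60, edgeR adjusted p = 1.36e-08, SD with n = 3 throughout). LARP1 rose by 0.40 on the log2 scale. Of 8 chaperones dedicated to single ribosomal proteins, 3 were higher and 3 lower, near the shares over all tested genes. They ran from HEATR3, a chaperone of RPL5, at -1.09 to PDCD2L at 1.29, and their median turned from 0.08 to -0.09 with total counts.

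The mitochondrial ribosomal protein genes, which serve the ribosome inside mitochondria, were an equally large list of 78 tested genes. They gave 27 higher and 34 lower (15 and 45 with total counts), with a median log2 fold change of -0.06 (-0.23 with total counts), and they ran from MRPL28 at -1.31 to MRPS30 at 1.50. Of all tested genes, 39.0% were called higher and 38.6% lower, or 4680 and 6728 of 14728 with total counts. The middle 50% of the mitochondrial ribosomal protein genes lay between -0.50 and 0.22, wider than that of the cytosolic family. Of 63 tested genes whose symbols begin with EIF, the prefix of the initiation factors, 33 were higher and 13 lower, with a median of 0.23 (0.07 with total counts). These include 13 with pseudogene symbols and 3 for the eIF4E-binding inhibitors. Without both kinds, a subset chosen after the values were seen, 27 of 47 were higher and 12 lower with a median of 0.23, from EIF5AL1 at -1.20 to EIF1 at 1.97, and 22 were higher and 18 lower with total counts. Ribosomal protein pseudogenes with enough counts numbered 190, of which 50 were called higher and 6 lower, with a median of 0.23. In both directions this was a smaller part than of all tested genes. With total counts 27 were called higher and 12 lower, with a median of 0.06. The pseudogenes took 2.63 ± 0.0643% of the counts on the family and its pseudogenes in untreated cells and 2.60 ± 0.167% after rhCYGB (SD, n = 3, two-sided exact permutation p = 0.9).

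**Figure D5:**
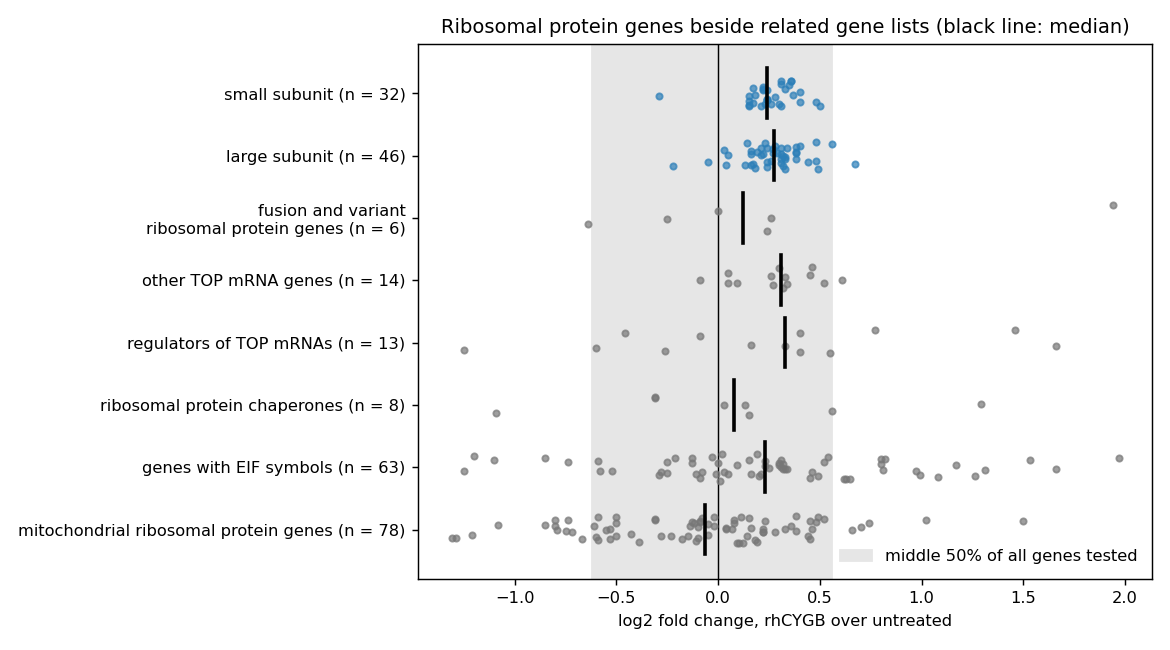
Log2 fold change after rhCYGB of each tested gene in the ribosomal protein family (blue) and in 6 related lists (grey), with the list's median as a black line and the middle 50% of all tested genes shaded. The cytosolic genes lie in a narrow band around 0.27, the mitochondrial ribosomal protein genes extend from -1.31 to 1.50, and the genes with EIF symbols, pseudogenes and eIF4E-binding proteins included, from -1.25 to 1.97.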

How the data were processed

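RNA-seq data of MIA PaCa-2 cells were used (3 untreated and 3 rhCYGB libraries, grouped by their titles). Per the labels, libraries were made with a stranded mRNA kit from 1 µg total RNA with inserts of 200 to 400 bp, and reads were checked with FastQC 0.11.7, mapped with HISAT2 2.1.0 and assembled with StringTie 2.1.3b. The read counts per gene and per transcript deposited by the authors are whole numbers without normalization, and the deposited FPKM values are scaled by the authors for transcript length and depth. TPM values that the authors scaled for length and depth fill 6 columns of each table and were left aside. The genome build is uncertain. The submitters' processing notes name a mouse build for these human cells, and positions on chromosome 1 reach 249231298 where the last GRCh38 gene ends at 248937099, so GRCh38 served only for names, GC content and start sequences. Whether strand was used in counting is not given in the sources used here.

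Counts were fitted in R 4.3.3 with edgeR 4.0.16 (filterByExpr, TMM, glmQLFit, glmQLFTest) on all 6 libraries without a block, and a gene was called at a Benjamini-Hochberg adjusted p under 0.05 over all 14728 genes tested. The dispersion common to all genes was 0.003, which is a coefficient of variation of 5.48%. Transcript shares were tested with diffSpliceDGE over 24967 transcripts. Shares of counts were compared with two-sided exact permutation tests. The alternatives were other scaling factors, DESeq2 1.42.0, limma 3.58.1 on log2(FPKM + 1) and log2(FPKM + 0.1), other filters, counts summed from transcripts, pseudogene counts added to parents, removal of a length trend or a GC trend, a block for the replicate number, and omission of each library in turn. The fits were tested on simulated data.

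The genes and lists were chosen with earlier results of these data known. Genes named in the text were members with a fold change of at least 2 (of which there were 0 by edgeR or DESeq2), the 6 highest and 6 lowest fold changes among members whose mean normalized count reached 100, the 3 highest and 3 lowest FPKM, the stalk, 5S particle, X-linked and paralogue genes, the 4 largest changes in transcript share, the ribosomal proteins outside the naming pattern (of which 1 is not reported here), and the 2 highest and 2 lowest of each other list. RPL35, RPS29, RPS24, RPS26, RPS19, RPL13, EEF1A1 and LARP1 were named after their values were seen. Samples with the same replicate number did not deviate together (correlations -0.048, 0.007 and 0.006).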

Additional observations from a re-analysis of the deposited data

How the results depend on the processing

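The number of ribosomal protein genes called lower was 2, and became 6 with upper-quartile factors, with total counts and with limma on log2(FPKM + 1) or log2(FPKM + 0.1). The number called higher was 72, and became 40 with total counts and 39 with limma on either FPKM scale. The median log2 fold change of 0.27 became 0.13 with upper-quartile factors, 0.10 with total counts or either FPKM scale, and 0.33 with a transcript length trend removed. Upper-quartile factors, total counts and the FPKM scales also moved the median of all genes, to between -0.09 and -0.17. With the length trend removed the median of all genes was 0.02. Under the other alternatives the counts stayed within 1.5 times and the median within the spread between libraries, and 38 genes were called higher under every setting run. Leaving out each library in turn gave 71 to 74 genes higher, 2 lower and medians from 0.24 to 0.30, and the replicate block gave 72 higher, 2 lower and a median of 0.27. Replicate numbers do not pair these libraries. No alternative gave a gene changed by 2-fold. With total counts 16 of the 78 genes were negative, and 61 were positive under every setting run. Among the 29 tested genes named by rule, signs turned for RPL22 (-0.10 with upper-quartile factors, -0.12 with total counts and both FPKM scales), RPL23 (-0.10 and -0.12 likewise), RPL7 (-0.11 and -0.13 likewise), RPL5 (-0.02 with total counts and both FPKM scales), RPLP0 (-0.0015 with total counts, -0.01 with both FPKM scales), RPS4X (-0.01 with total counts and both FPKM scales), RPL17 (-0.0048 with total counts) and RPL15 (0.02 with the GC trend removed, an alternative chosen after seeing the data). For the rise in the share of library counts, 0.72 percentage points became 2.23 as a share of summed FPKM and ranged with a library left out from 0.566 to 0.941. The 12 transcripts with a changed share became 16 with at least 10 counts in every library and 10 with the block, and 7 to 14 with a library left out, the lowest being 7 without untreated library 2 or without rhCYGB library 1. Over all transcripts, the 478 called became 670 with at least 10 counts in every library, 227 with the block and 301 to 421 with a library left out. The causes of these changes were not tested.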
